A study of Mus musculus with 15 samples.

Results

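The epidermal growth factor (EGF) receptor family was followed through 10 genes: the receptors Egfr, Erbb2, Erbb3 and Erbb4, the ligands Egf, Tgfa, Hbegf and Nrg1, and the receptor brakes Lrig1 and Errfi1. They were found by symbol in the deposited gene tables, 10 of the 32735 genes counted, and all 10 passed the filter on low counts. The libraries came from 5 sorted cell populations of hGFAP::GFP mice, males and females pooled, in which the human GFAP promoter drives GFP in astrocytes and astrocyte-like stem cells. Of the populations, 4 were from the V-SVZ (ventricular-subventricular zone), where adult neural stem cells sit beside the lateral ventricles, and all of these were GFP+ and CD24-. GPB+ cells were PDGFRβ+ CD133- EGFR-, GCPB+ cells were PDGFRβ+ CD133+ EGFR-, GCEPB+ cells were PDGFRβ+ CD133+ EGFR+, and GCEPB- cells were PDGFRβ- CD133+ EGFR+. The fifth population, CTX, held GFP+ astrocytes of the cortex with no EGFR gate given, and each population had 3 libraries. The labels give no age, no number of animals and no statement on whether replicates are separate animals, and the p-values therefore reflect only how these samples vary, perhaps technically.

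Receptors of this family pair up when a ligand binds and then phosphorylate each other, which turns on the Ras-ERK, PI3K and STAT pathways. EGFR binds EGF, TGFα and HB-EGF, ERBB2 has no known soluble ligand and acts as a partner, ERBB3 and ERBB4 bind neuregulins such as the product of Nrg1, and the ligands are made as membrane proteins that proteases release. In the V-SVZ, EGFR at the cell surface marks activated stem cells and transit-amplifying progenitors, and EGF is the classical growth factor for growing neural stem cells in culture. LRIG1 is a membrane protein that promotes degradation of these receptors, and the product of Errfi1, also called MIG6, binds their kinase domain and inhibits it.

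Total counts ran from 12431567 to 33592810 per library, and a floor of 3 counts came to 0.102 to 0.246 CPM (counts scaled to library size, here with TMM factors), which covers counting error only. The 12 astrocyte markers summed to 42118 to 54088 CPM in the 9 libraries of CTX, GPB+ and GCPB+. Their sum was 9528 to 15950 CPM for GCEPB+ and 3753 to 4181 CPM for GCEPB-, with no marker at 0 in any library. The 10 markers of activated stem and transit-amplifying cells summed to 118 to 205 CPM in those 9 libraries, 4121 to 5032 CPM in GCEPB+ and 8007 to 9326 CPM in GCEPB-. The 10 neuroblast markers summed to 10.5 to 36.8 CPM in those 9 libraries, 85.7 to 131 CPM in GCEPB+ and 291 to 422 CPM in GCEPB-. Endothelial, microglial, mural, ependymal and mature neuron lists summed to 88.7 CPM or less in every library. GCEPB+ replicate 1 was the lowest of its group for 8 of the 10 genes. In each other population 1 replicate was the lowest for 6 of them.

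Egfr and Erbb2 lie on the same chromosome and moved in opposite directions between GCPB+ and GCEPB+ cells, so the 250 bases before each RefSeq start are shown, on GRCm38.p6 and the plus strand. The Egfr stretch is chr11:16751953-16752202 and the Erbb2 stretch is chr11:98412234-98412483. Capitals mark a GC box (GGGCGG, which reads CCGCCC where it lies on the other strand) or a CCAAT box (CCAAT), both searched on both strands.
Egfr: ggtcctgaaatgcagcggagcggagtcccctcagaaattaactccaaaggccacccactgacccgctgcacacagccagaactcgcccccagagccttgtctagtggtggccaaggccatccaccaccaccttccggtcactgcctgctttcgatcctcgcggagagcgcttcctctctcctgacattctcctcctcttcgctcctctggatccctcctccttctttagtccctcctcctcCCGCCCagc
Erbb2: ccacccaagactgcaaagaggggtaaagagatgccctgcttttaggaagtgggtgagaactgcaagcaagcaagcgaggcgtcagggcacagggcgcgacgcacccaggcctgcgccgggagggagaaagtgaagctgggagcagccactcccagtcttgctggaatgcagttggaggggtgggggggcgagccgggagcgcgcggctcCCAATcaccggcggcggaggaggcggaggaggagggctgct
The Egfr stretch held 1 GC box and no CCAAT box, and the Erbb2 stretch held no GC box and 1 CCAAT box. Neither held TATAAA. Of 32851 RefSeq promoter stretches of this length, 32.7% held a GC box, 33.8% a CCAAT box and 12.4% TATAAA. G and C made up 60.8% of the Egfr stretch and 66% of the Erbb2 stretch, against a median of 52.4% over all promoters. These matches describe letters and no binding. RefSeq promoters were matched for 7 of the 10 genes.

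Egfr, the receptor used for the sort (mm10, chromosome 11, 16752203 to 16913907), was present in all 5 populations. Its level was 169.7, 171 and 163 CPM in CTX, 142, 179.8 and 190.4 CPM in GPB+, and 105, 151 and 209.8 CPM in GCPB+. It was 455, 602 and 554 CPM in GCEPB+ and 772, 852 and 765 CPM in GCEPB-. All 6 EGFR+ libraries were above all 9 libraries of CTX, GPB+ and GCPB+, and GCEPB- lay above GCEPB+ with no overlap. Between GCEPB+ and GCPB+ the log2 fold change was 1.79 ± 0.21 (SE), a check of the EGFR gate and not a finding. Both GCEPB populations passed that gate, and between them the difference did not pass the test (log2 fold change of GCEPB+ against GCEPB- -0.57 ± 0.21, adjusted p = 0.0943). Here and below, adjusted p-values come from edgeR's quasi-likelihood test across 16302 genes with Benjamini-Hochberg adjustment and a threshold of 0.05. GPB+, CTX and GCPB+ did not differ beyond their spread (adjusted p of neighbours in that order 0.979 and 0.835).

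Erbb2, the ligand-less partner receptor (chromosome 11, 98412484 to 98437716), went the other way. It measured 31.7, 26.9 and 18.2 CPM in CTX, 41.5, 28.6 and 30.2 CPM in GPB+, and 31.4, 26.7 and 17.2 CPM in GCPB+. In GCEPB+ it measured 4.56, 14.3 and 10.6 CPM, and in GCEPB- 3.0, 5.54 and 6.36 CPM. Each EGFR+ library was below each of the other 9 libraries. Erbb2 was 2.55-fold lower in GCEPB+ than in GCPB+ (log2 fold change -1.35 ± 0.39, edgeR adjusted p = 0.0123), a call that was lost without GCPB+ replicate 1 (adjusted p = 0.0509). On the authors' FPKM scale the same difference was -0.73 as log2(FPKM + 1) and -1.02 as log2(FPKM + 0.1). The 2 EGFR+ populations overlapped, and their difference did not pass (log2 fold change 0.98 ± 0.40, adjusted p = 0.139), but passed without GCEPB+ replicate 1 (1.32, adjusted p = 0.0242). Mien1, a gene that overlaps Erbb2, averaged 58.2 to 86.0 CPM in the 5 populations, and its part in the Erbb2 counts was not tested.

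Erbb3 and Erbb4, the neuregulin receptors, were at 0 counts in some libraries and reached at most 88 and 116 counts (chromosome 10, 128569368 to 128589501, and chromosome 1, 68032187 to 69108059). Erbb3, a receptor with little kinase activity of its own, had 0 to 26 counts in CTX, GPB+ and GCPB+, 0, 88 and 23 counts in GCEPB+ and 1, 1 and 3 counts in GCEPB-. Its levels in GCEPB+ were 0, 4.27 and 1.19 CPM, and replicate 2 held the highest Erbb3 value in 4 of 5 populations. The 10 mature oligodendrocyte markers moved with it in GCEPB+, at 309, 1230 and 831 CPM in replicates 1, 2 and 3, and they summed to 128 to 193 CPM in GCEPB-, where 1 of them was at 0 in replicate 2 and 2 in replicate 3. Of these markers 6 of 10 passed the test as higher in GCEPB+ than in GCEPB-. In the other 9 libraries these markers summed to 243 to 2050 CPM. Replicate 2 was highest for both markers and Erbb3 in GPB+ and GCPB+. In CTX and GCEPB- the markers were highest in replicate 1, and Erbb3 in replicates 2 and 3, respectively. GCPB+ held 1463 to 2050 CPM of the markers, with Erbb3 at 0.41 to 2.05 CPM. The 8 endothelial markers ran in the same replicate order as Erbb3 in GCEPB+, at 0.52, 32.7 and 9.77 CPM in replicates 1, 2 and 3. No further marker list had that order there. The part of either list's cells in Erbb3 was not tested. Erbb4 measured 0.32, 5.63 and 2.38 CPM in GCEPB+ and 2.03, 1.32 and 3.42 CPM in GCEPB-, against 0 to 1.5 CPM in the other 9 libraries. The order of the 5 populations had no step that passed the edgeR test for either gene, and the smallest adjusted p among the 4 planned comparisons was 0.147 for Erbb3 in GCEPB+ against GCEPB- and 0.0943 for Erbb4 in GCEPB+ against GCPB+.

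**Figure D1:**
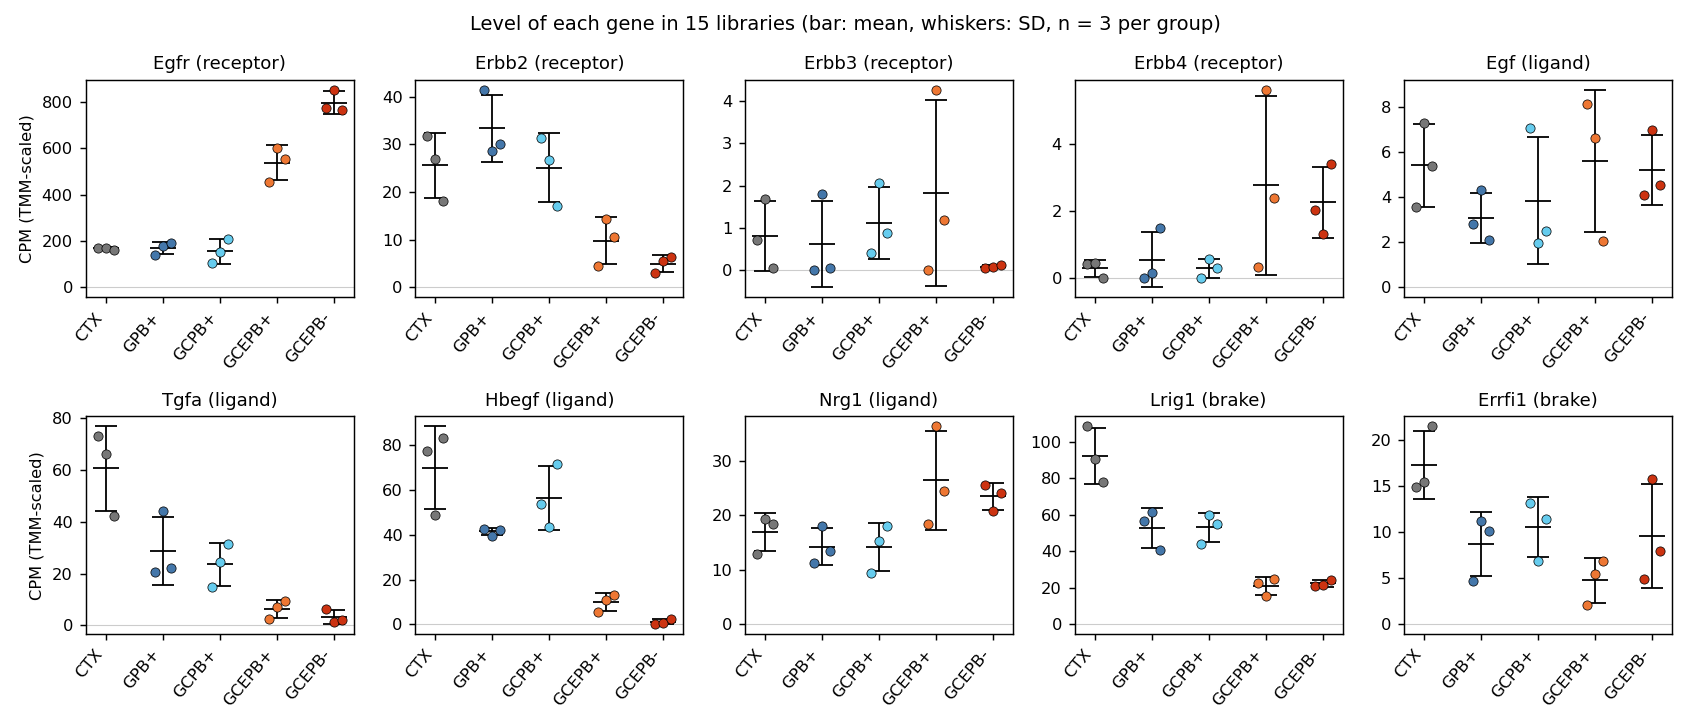
Level of each of the 10 genes in the 15 libraries, in TMM-scaled CPM (y axis, own scale per panel) by population (x axis); dots are libraries, bars are means and whiskers are SD (n = 3). Egfr lies at 455 CPM or more in the 6 EGFR+ libraries, where Hbegf lies at 13.2 CPM or less.

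Hbegf, the precursor of heparin-binding EGF (chromosome 18, 36504927 to 36515805), showed the widest range of the ligands. Its level was 77.5, 48.7 and 83.2 CPM in CTX, 42.6, 39.6 and 42.2 CPM in GPB+, and 53.8, 43.6 and 71.5 CPM in GCPB+. It was 5.49, 11.0 and 13.2 CPM in GCEPB+ and 0.40, 0.86 and 2.53 CPM in GCEPB-. GCEPB+ lay below all 9 libraries of CTX, GPB+ and GCPB+, and GCEPB- lay below GCEPB+, with no overlap. Hbegf was 5.70-fold lower in GCEPB+ than in GCPB+ (log2 fold change -2.51 ± 0.44, edgeR adjusted p = 0.000245) and 7.57-fold higher in GCEPB+ than in GCEPB- (2.92 ± 0.48, adjusted p = 0.000509). The second value rested on 9, 13 and 63 counts in GCEPB-, and without GCEPB- replicate 3 it was 4.02. It was 1.58 on log2(FPKM + 1) and 2.67 on log2(FPKM + 0.1). Hbegf FPKM in GCEPB- was 0.22 to 0.98, below the 1 that was added. The first value was -1.90 on log2(FPKM + 1) and -2.16 on log2(FPKM + 0.1). Both calls held under every alternative tried. Hbegf was the only one of the 10 genes with a passing step on both sides of GCEPB+ in its order (GPB+ over GCEPB+, adjusted p = 0.00113).

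Tgfa, the precursor of transforming growth factor alpha (chromosome 6, 86195227 to 86275743), was likewise lower in EGFR+ cells but did not separate the 2 EGFR+ populations. It measured 73.3, 66.4 and 42.3 CPM in CTX, 20.7, 44.1 and 22.0 CPM in GPB+, and 15, 24.3 and 31.6 CPM in GCPB+. In GCEPB+ it measured 2.58, 6.98 and 9.36 CPM, and in GCEPB- 6.45, 1.19 and 2.17 CPM. All EGFR+ libraries were below all of the other 9, and the EGFR+ populations overlapped. Tgfa was 3.76-fold lower in GCEPB+ than in GCPB+ (log2 fold change -1.91 ± 0.54, edgeR adjusted p = 0.0103). The difference was -1.02 on log2(FPKM + 1) and -1.51 on log2(FPKM + 0.1). Its mean was 60.7 CPM in CTX and 28.9 CPM in GPB+, a difference that did not pass (log2 fold change of GPB+ against CTX -1.07 ± 0.52, adjusted p = 0.262).

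Egf itself (chromosome 3, 129677577 to 129755322) was low in every population. It measured 3.57, 7.29 and 5.40 CPM in CTX, 2.80, 4.32 and 2.12 CPM in GPB+, and 7.11, 1.97 and 2.51 CPM in GCPB+. Among EGFR+ cells it measured 8.16, 6.64 and 2.07 CPM in GCEPB+ and 4.11, 7.0 and 4.55 CPM in GCEPB-. The ranges of all 5 populations overlapped, and no step of their order passed the edgeR test (adjusted p from 0.570 to 0.950). Within GCEPB+ the highest library was 3.94 times the lowest.

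Nrg1, the neuregulin whose receptors are ERBB3 and ERBB4 (chromosome 8), was the one of these 4 ligands higher in GCEPB+ than in GCPB+ by the test. It measured 12.9, 19.4 and 18.5 CPM in CTX, 11.3, 18 and 13.5 CPM in GPB+, and 9.36, 15.2 and 18 CPM in GCPB+. In GCEPB+ it measured 18.5, 36.4 and 24.6 CPM, and in GCEPB- 25.7, 20.7 and 24.1 CPM. GCEPB+ lay just above GCPB+ with no overlap, while it overlapped with GCEPB- and with CTX. The difference between GCEPB+ and GCPB+ was 1.87-fold (log2 fold change 0.90 ± 0.31, edgeR adjusted p = 0.0316). It did not pass without GCPB+ replicate 1 (adjusted p = 0.137), GCPB+ replicate 2 (0.0630), GCEPB+ replicate 2 (0.173) or GCEPB+ replicate 3 (0.0526), nor with the 2 groups fitted alone (0.0871). The deposited row spans 31818028 to 32009491, which is part of the RefSeq gene (31807452 to 32891609), and 2 other rows of the deposited table overlap it. Their part in the Nrg1 counts was not tested.

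Lrig1, the brake that promotes receptor degradation (chromosome 6, 94604529 to 94700145), fell in 2 steps. Its level was 108, 90.5 and 78.0 CPM in CTX, 56.5, 61.5 and 40.4 CPM in GPB+, and 44.2, 60.1 and 54.8 CPM in GCPB+. It was 22.7, 15.4 and 24.5 CPM in GCEPB+ and 20.8, 21.7 and 24.4 CPM in GCEPB-. The cortical libraries, the EGFR- V-SVZ libraries and the EGFR+ libraries formed 3 ranges with no overlap. Lrig1 was 2.54-fold lower in GCEPB+ than in GCPB+ (log2 fold change -1.35 ± 0.23, edgeR adjusted p = 0.000197), which held under every alternative tried. It was 1.75-fold lower in GPB+ than in CTX (-0.81 ± 0.22, adjusted p = 0.0393), a call near the threshold that was lost with any of the 6 libraries left out: without CTX replicates 1, 2 and 3 the adjusted p was 0.166, 0.0923 and 0.0544, and without GPB+ replicates 1, 2 and 3 it was 0.0695, 0.0525 and 0.162. GCEPB+ and GCEPB- differed by -0.10 ± 0.23 on the log2 scale (adjusted p = 0.865). Slc25a26, which overlaps Lrig1, averaged 6.94 to 12.8 CPM, and its part in the Lrig1 counts was not tested.

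Errfi1, the kinase inhibitor MIG6 (chromosome 4, 150853919 to 150868880), varied more within each population than Lrig1. It measured 14.9, 15.3 and 21.4 CPM in CTX, 4.71, 11.2 and 10.1 CPM in GPB+, and 13.1, 6.88 and 11.4 CPM in GCPB+. In GCEPB+ it measured 2.06, 5.38 and 6.83 CPM, and in GCEPB- 4.90, 15.8 and 7.93 CPM. CTX lay above GPB+, GCPB+ and GCEPB+ with no overlap, and GCEPB+ lay just under GCPB+. The difference between GCEPB+ and GCPB+ did not pass (log2 fold change -1.15 ± 0.49, edgeR adjusted p = 0.0789), but passed with the replicate number as a block (adjusted p = 0.0293) and with DESeq2 (0.0430). No step in its order of levels passed, and GCEPB+ against CTX did (-1.86 ± 0.50, adjusted p = 0.00626).

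The comparison of GCEPB+ with GCPB+ asks what goes with surface EGFR in PDGFRβ+ CD133+ cells, and it moved 6 of the 10 genes. Apart from Egfr, Nrg1 was higher in GCEPB+, and Hbegf, Tgfa, Erbb2 and Lrig1 were lower, which are 2 ligands of EGFR, a partner receptor and a brake. Of all genes tested, 18.1% were higher and 18% were lower, beside 2 of 10 higher and 4 of 10 lower here. Egfr, the sorted gene, is 1 of the 2 higher, and its call was set by the gate. The median log2 fold change of the 10 genes, Egfr included, was -0.31 and that of all genes 0.11. On log2(FPKM + 1) the median of all genes was 0.24, and 4720 genes were higher and 2307 lower in place of 2956 and 2933, yet the 6 genes kept their direction and passed. Of the 12 astrocyte markers, 11 fell and none rose in GCEPB+, all 10 activated stem and transit-amplifying cell markers were higher, and 4 of 10 neuroblast markers were higher. Also higher were 2 of 8 microglial, 2 of 8 oligodendrocyte progenitor and 2 of 5 mature neuron markers tested. Lower were 2 of 10 mature oligodendrocyte, 2 of 6 mural, 1 of 8 ependymal and 1 of 5 mature neuron markers tested. The part of these shifts in the family's values was not tested, and fewer cells of a type and less RNA per cell cannot be told apart in such bulk libraries.

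In GCEPB+ against GCEPB-, which asks about PDGFRβ among EGFR+ cells, Hbegf was the 1 gene of 10 that was higher in GCEPB+, beside 9.28% of all genes tested, and 0 were lower, beside 1.85% of all genes. Unadjusted p-values under 0.05 numbered 4, for Hbegf, Egfr, Erbb2 and Erbb3, and their share over all genes was not counted. DESeq2 called 2 higher and 0 lower, adding Erbb3 (adjusted p = 0.0495). Over all genes DESeq2 called 1864 higher and 557 lower of 16764. On log2(FPKM + 1) limma called 1 higher and 0 lower of the 8 it could test. Over all genes limma called 1401 higher and 714 lower of 16070. The median log2 fold change of the 10 genes was 0.23 and that of all genes 0.03. Astrocyte markers were higher in GCEPB+ for 11 of 12 and lower for none, and 2 of 8 tested microglial markers were higher. Also higher were 6 of 10 mature oligodendrocyte, 1 of 8 ependymal and 1 of 5 mature neuron markers tested. Lower were 4 of 10 activated stem and transit-amplifying cell markers and 2 of 10 neuroblast markers, and the part of these shifts was not tested.

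The comparison of GCPB+ with GPB+ asks about CD133 among PDGFRβ+ EGFR- cells. None of the 10 genes was called by edgeR, DESeq2 or limma, and 0 had an unadjusted p under 0.05 by edgeR or DESeq2. Among all genes, 0.0245% were higher and 0.00613% were lower, so few calls were available to any list. The log2 fold changes of the 8 genes other than Erbb3 and Erbb4 lay between -0.42 ± 0.38 for Erbb2 and 0.44 ± 0.41 for Hbegf. The smallest adjusted p among the 10 genes was 0.842.

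In GPB+ against CTX, V-SVZ against cortical GFP+ cells, Lrig1 was the 1 gene of 10 that was lower in GPB+, beside 2.7% of all genes, and 0 were higher, beside 4.04%. By unadjusted p under 0.05 edgeR had 1 gene, Lrig1, and DESeq2 had 3, with no share over all genes counted. The median log2 fold change of the 10 genes was -0.59 and that of all genes 0.00. Tgfa, Errfi1, Egf and Hbegf had lower means in GPB+ without passing the test (log2 fold changes -1.07 ± 0.52, -0.99 ± 0.49, -0.82 ± 0.57 and -0.75 ± 0.41). Cortical libraries carried more oligodendrocyte progenitor marker RNA, 185 to 274 CPM over 8 genes against 40.7 to 84.7 CPM in GPB+, and more mural marker RNA, 40.7 to 57.3 against 7.51 to 17.2 CPM. By the test 2 of 8 progenitor and 1 of 6 tested mural markers were lower in GPB+, and Cspg4 is on both lists. In GPB+ 6 of 10 activated stem and transit-amplifying cell markers, 4 of 10 neuroblast markers and 2 of 8 ependymal markers were higher. Of 12 astrocyte markers, 1 was higher and 1 lower. Ependymal markers summed to 54.8 to 73.1 CPM in GPB+ and 24.2 to 34.8 CPM in CTX. Microglial markers summed to 5.96 to 13.7 CPM in GPB+ and 22.1 to 29.1 CPM in CTX, with none called. The part of these shifts was not tested.

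**Figure D2:**
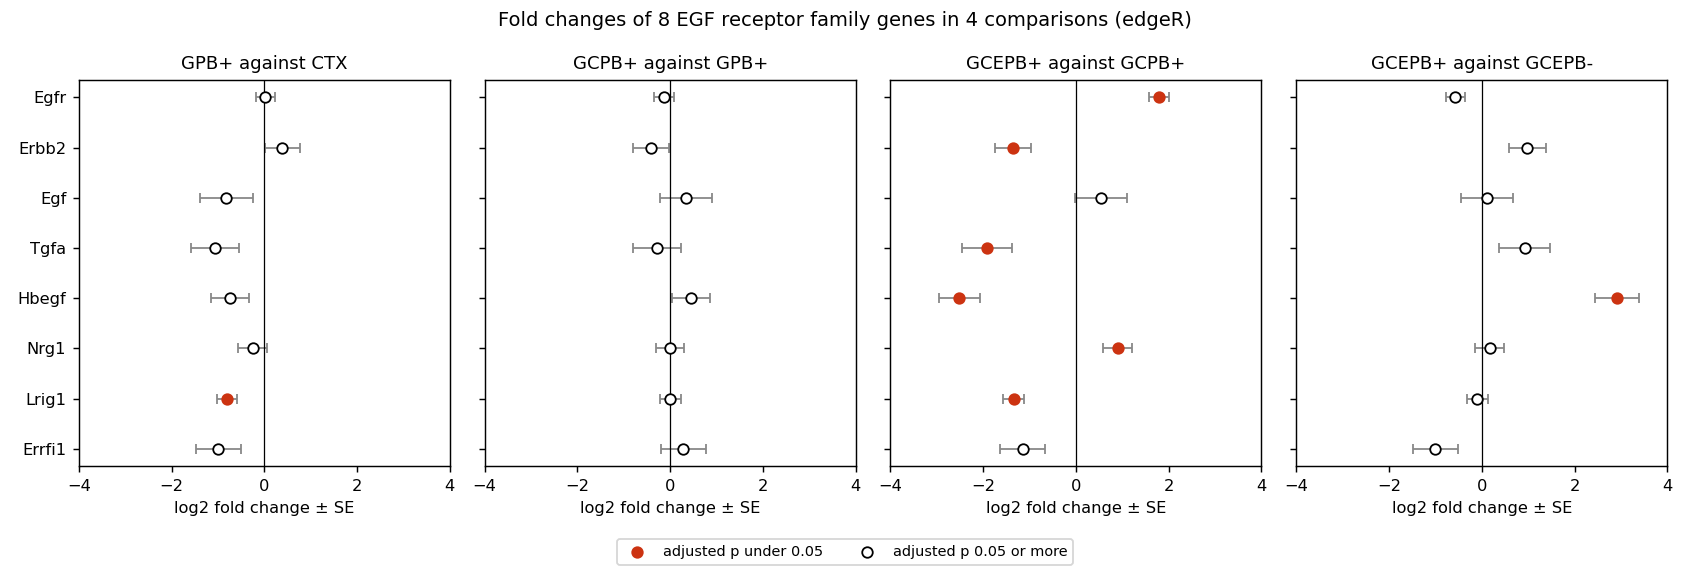
Log2 fold changes (x axis) of 8 genes (rows) in the 4 comparisons, with bars of 1 SE, from edgeR over 15 libraries; filled dots passed the adjusted p of 0.05, and Erbb3 and Erbb4 are left out because they had 0 counts in some libraries. GCEPB+ against GCPB+ holds 6 filled dots, Egfr being the sorted gene, and GCPB+ against GPB+ holds none.

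The other 6 pairs of populations share libraries with these and are not independent of them. Genes called in either direction numbered 6 of 10 for GCEPB+ against GPB+ (37.2% of all genes), 6 for GCEPB+ against CTX (41.9%), and 1 for GCPB+ against CTX (6.72%). For GCEPB- they numbered 5 against GCPB+ (48.8%), 5 against GPB+ (49%) and 5 against CTX (51.3%). Egfr, the sorted gene, is among the calls in each of these pairs that holds an EGFR+ population. The single call of GCPB+ against CTX was Lrig1 (log2 fold change -0.80 ± 0.22, edgeR adjusted p = 0.0413).

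Levels of different genes can be set side by side on the authors' FPKM scale, which divides by transcript length. There Egfr made up 82.3% (GPB+), 84.7% (GCPB+) and 86.9% (CTX) of the summed FPKM of the 4 receptors outside the EGFR+ populations, and 97.4% (GCEPB+) and 99.1% (GCEPB-) within them (group means, n = 3). Erbb2 held 14.4% in GCPB+ and 1.90% in GCEPB+. The summed FPKM of the EGFR ligands Hbegf, Tgfa and Egf was 30.8 ± 5.0 for CTX, 17.2 ± 2.2 for GPB+ and 20.4 ± 4.5 for GCPB+, against 6.18 ± 1.28 for GCEPB+ and 2.45 ± 0.06 for GCEPB- (SD, n = 3). EGFR+ libraries thus held more receptor transcript and less transcript of these 3 ligands, with no overlap with the other 9 libraries on either axis. The sum leaves out other ligands of the family. Of those, Btc went the other way, at 1.70 ± 0.97 CPM in GCEPB+ and 0.15 ± 0.11 CPM in GCPB+ (SD, n = 3). Egfr FPKM over summed ligand FPKM was 0.807 (0.734 to 0.886) for CTX, 1.31 (1.18 to 1.55) for GPB+ and 1.08 (0.810 to 1.24) for GCPB+. The same ratio was 13.8 (12.5 to 15.4) in GCEPB+ and 49.4 (46.3 to 55.1) in GCEPB-. Egfr is the sorted gene, so the receptor side of this ratio was set by the gate, while no ligand was sorted on.

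**Figure D3:**
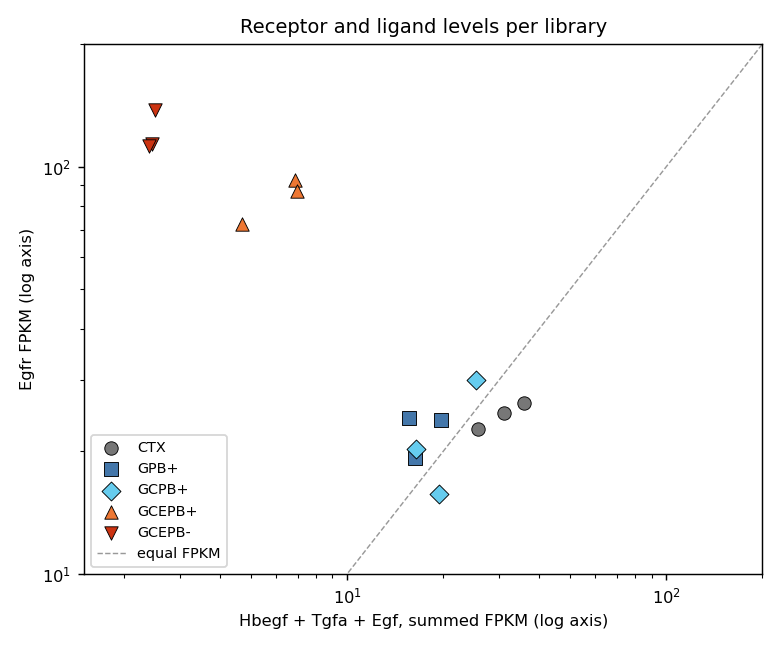
Egfr FPKM (y axis, log) against the summed FPKM of Hbegf, Tgfa and Egf (x axis, log) in the 15 libraries, with a dashed line where both are equal. The CTX, GPB+ and GCPB+ libraries lie near the line, and the 3 GCEPB- libraries lie farthest from it, at 2.40 to 2.51 ligand FPKM.

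The make-up of the ligand sum differed too. Hbegf held 65.7% of it for CTX, 70.8% for GPB+, 78.4% for GCPB+ and 57.0% for GCEPB+, but 21.9% (9.07% to 40.9%) in GCEPB-. Egf, whose own level did not pass any test, held 3.55% to 3.78% outside the EGFR+ populations, 22.9% (5.43% to 41.2%) in GCEPB+ and 50.9% (39.4% to 72.5%) in GCEPB-. The GCEPB+ range of Egf is wide: replicate 1 had 41.2%, replicate 2 had 22.1% and replicate 3 had 5.43%. Tgfa held between 17.9% and 30.5% on average in all 5 populations, and 51.5% in GCEPB- replicate 1. In GCEPB- these shares are parts of a sum under 3 FPKM, so small counts move them.

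**Figure D4:**
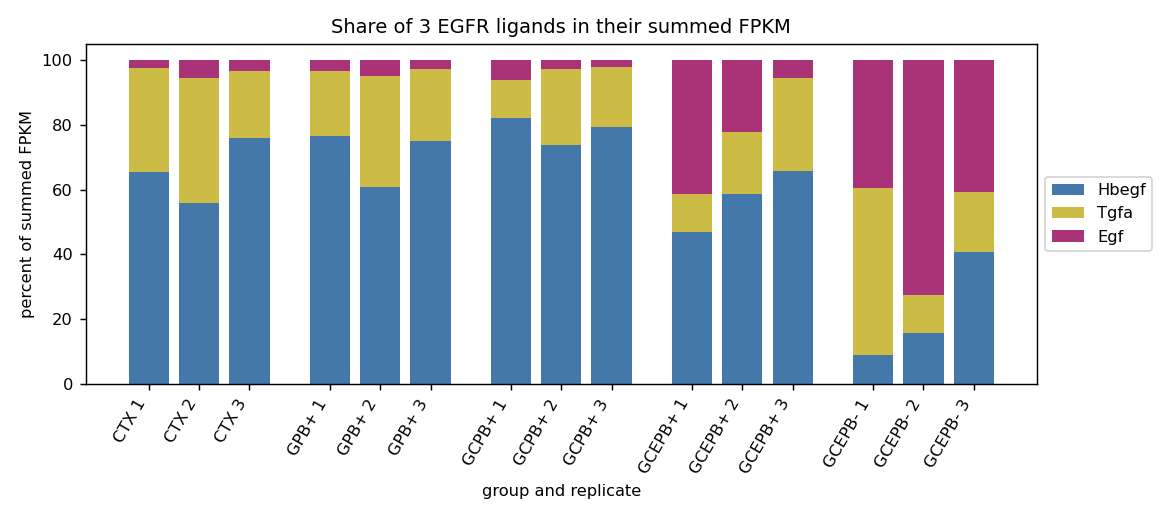
Share of Hbegf, Tgfa and Egf (percent of their summed FPKM, y axis) in each library (x axis, group and replicate). Hbegf is the largest share in all 9 libraries of CTX, GPB+ and GCPB+, and Egf ranges from 39.4% to 72.5% in GCEPB-.

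Brakes were set against the receptor in the same way. Egfr FPKM over Lrig1 FPKM was 1.80 (1.62 to 2.14) for CTX, 2.88 (2.21 to 3.90) for GPB+ and 2.74 (2.25 to 3.63) for GCPB+. Among EGFR+ cells it was 22.5 (16.3 to 32.5) for GCEPB+ and 29.5 (25.9 to 33.0) for GCEPB-. Over Errfi1 it was 6.0 for CTX, 11.9 for GPB+ and 9.34 for GCPB+, and 64.0 for GCEPB+ and 53.6 for GCEPB-. The EGFR+ populations overlapped for both ratios. Egfr is the sorted gene, so the gate set the receptor side of both ratios. Lrig1 by itself was lower in GCEPB+ than in GCPB+ (edgeR adjusted p = 0.000197), while Errfi1 did not pass (0.0789). Errfi1 averaged 9.53 CPM in GCEPB- and 8.66 CPM in GPB+. Lrig1 FPKM over Errfi1 FPKM averaged 1.85 to 4.56 and overlapped among all 5 populations.

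Around these genes, 6 lists of other pathway members held 82 genes, of which 74 were tested. In GCEPB+ against GCPB+, 14 of the 74 were higher and 15 lower (18.9% and 20.3%), near the 18.1% and 18% of all genes, and 16 of the 29 calls held under every alternative. In GCEPB+ against GCEPB- 4 were higher and 1 lower (5.41% and 1.35%, beside 9.28% and 1.85% of all genes). In GPB+ against CTX 0 were higher and 5 lower (0% and 6.76%, beside 4.04% and 2.7%), and in GCPB+ against GPB+ none was called (3 at unadjusted p under 0.05 by edgeR, 0 called by DESeq2 or limma). In GPB+ against CTX 19 had an unadjusted p under 0.05, and DESeq2 called 10 and limma 8. Over all genes DESeq2 called 993 higher and 787 lower of 16323 there. On log2(FPKM + 1) limma called 504 and 671 of 16070. For unadjusted p-values no share over all genes was counted.

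Of 7 other ligands of the family, Areg and Ereg had 0 counts in all 15 libraries, Epgn had at most 11 and Nrg3 at most 15. Btc, the gene of betacellulin, was the 1 of 3 tested that was higher in GCEPB+ than in GCPB+, at 1.70 ± 0.97 against 0.15 ± 0.11 CPM (SD, n = 3, adjusted p = 0.0483), and it is named after its values were seen. That call was lost when any of the 6 libraries was left out (adjusted p 0.147, 0.0806 and 0.108 without GCPB+ replicates 1, 2 and 3, and 0.0549, 0.127 and 0.0639 without GCEPB+ replicates 1, 2 and 3). Among 8 tested genes of ligand release, Adam12 and Adam9 were higher and Rhbdf1 lower in GCEPB+ than in GCPB+. All genes tested had 18.1% higher and 18% lower there. Adam12, a metalloprotease that can cut HB-EGF, was 10.3 ± 7.8 against 0.31 ± 0.27 CPM (log2 fold change 5.12 ± 0.91, adjusted p = 0.000296). Rhbdf1, whose product iRhom1 helps the main releasing protease ADAM17 mature, was 7.69 ± 3.24 against 38.9 ± 8.6 CPM (-2.33 ± 0.31, adjusted p = 2.27e-05), and it was also lower in GPB+ than in CTX (54.6 ± 11.2 against 146 ± 31 CPM, adjusted p = 0.00795). Adam9, at 22.9 ± 3.9 against 12.9 ± 3.7 CPM, lost its call without GCPB+ replicate 1 (adjusted p = 0.0885) and without GCEPB+ replicate 1 (0.0659). The median log2 fold change of the ligand release list was -0.10.

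Inside the cell, 4 of 19 genes of the adaptor and Ras-ERK relay were higher in GCEPB+ than in GCPB+ and 1 was lower. This stands beside 18.1% higher and 18% lower of all genes. The median was 0.29 beside 0.11 for all genes. Nras, a Ras GTPase, was 338 ± 57 against 161 ± 19 CPM (log2 fold change 1.07 ± 0.19, edgeR adjusted p = 0.000263). Sos1, the exchange factor that loads Ras, lost its call without GCPB+ replicate 1 (adjusted p = 0.0607), and Mapk3, the ERK1 kinase gene, without GCPB+ replicate 3 (0.0605) and GCEPB+ replicate 1 (0.103). Of the 12 PI3K and STAT genes, 1 was higher and 3 were lower, beside the same 18.1% and 18% of all genes. Stat3, a transcription factor downstream of many cytokine and growth factor receptors, was 33.6 ± 5.0 CPM in GCEPB+, lower than the 122 ± 24 CPM of GCPB+ (-1.86 ± 0.25, adjusted p = 1.81e-05) and higher than the 13.2 ± 4.0 CPM of GCEPB- (1.34 ± 0.25, adjusted p = 0.00135). Stat5a was 1.44 ± 0.58 against 11.0 ± 4.0 CPM in GCPB+ (adjusted p = 0.00274). In GPB+ against CTX the 1 call of this list was Akt2, an AKT kinase, at 207 ± 10 against 577 ± 86 CPM (edgeR adjusted p = 1.56e-05). Lower calls there made up 2.7% of all genes.

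Of 20 other receptor brakes and degradation factors, 2 rose and 4 fell in GCEPB+ relative to GCPB+, with a median of -0.24. Among all genes tested, 18.1% rose and 18% fell. Spry2, a Sprouty inhibitor of receptor signalling, was 282 ± 53 against 642 ± 76 CPM (log2 fold change -1.19 ± 0.25, edgeR adjusted p = 0.00143). Rasa1, a Ras GTPase activator that switches Ras off, went the other way at 62.7 ± 4.1 against 27.7 ± 7.4 CPM (1.18 ± 0.29, adjusted p = 0.00468). So did Erbb2ip, whose product Erbin binds ERBB2, at 70.0 ± 16.5 against 36.4 ± 9.7 CPM (adjusted p = 0.00558). In GCEPB+ against GCEPB- the 1 call was Spred1, a Ras-pathway inhibitor, higher in GCEPB+ beside 9.28% of all genes. It was 72.8 ± 9.7 against 40.8 ± 3.5 CPM (edgeR adjusted p = 0.0146), a call lost without GCEPB+ replicate 3 (0.0711) or GCEPB- replicate 3 (0.0702).

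The ERK feedback and early target list split within itself. Of its 12 tested genes, 4 were higher and 6 were lower in GCEPB+ than in GCPB+, beside 18.1% and 18% of all genes. The median was -0.05. Egr1 and Fos, immediate early transcription factors, were 119 ± 24 against 3.10 ± 0.39 CPM (log2 fold change 5.26 ± 0.63, edgeR adjusted p = 6.92e-06) and 195 ± 29 against 14 ± 3.3 CPM (3.79 ± 0.63, adjusted p = 0.000175). Ccnd1, the gene of cyclin D1, was 50.8 ± 28.5 against 4.62 ± 2.34 CPM (3.48 ± 0.43, adjusted p = 9.84e-06). Phlda1 was lower, at 2.82 ± 0.76 against 16.4 ± 7.8 CPM (-2.53 ± 0.43, adjusted p = 0.000196). Spry4, a Sprouty gene, and the ETS factor gene Etv4 were also lower, at 21.1 ± 10.2 against 54.4 ± 8.5 CPM (adjusted p = 0.00685) and 15.3 ± 4.1 against 41.0 ± 11.0 CPM (adjusted p = 0.000877), both named after their values were seen. In GCEPB+ against GCEPB- 2 of the 12 were higher and 1 was lower, beside 9.28% and 1.85% of all genes. Myc, a growth-promoting transcription factor, was higher at 7.31 ± 0.80 against 2.90 ± 0.47 CPM (1.33 ± 0.33, adjusted p = 0.0124), a call lost without GCEPB- replicate 1 (0.0524) or 2 (0.0549) and with the 2 groups alone (0.0507). Phlda1 was higher at 2.82 ± 0.76 against 0.62 ± 0.32 CPM (edgeR adjusted p = 0.00425), a call lost with the 2 groups alone (0.0629) and on log2(FPKM + 1) (0.0640). With a mean under 5 CPM, Phlda1 falls outside the naming rule here and is named after its values were seen. Egr1 was lower in GCEPB+ than in GCEPB-, where it reached 593 ± 87 CPM (-2.32 ± 0.54, adjusted p = 0.00787). In GPB+ against CTX 3 of the 12 were lower, beside 2.7% of all genes, and none higher, beside 4.04%: Ccnd1 (5.01 ± 0.90 against 50.1 ± 11.8 CPM, adjusted p = 0.000146), Etv4 (37.6 ± 7.9 against 163 ± 27 CPM, adjusted p = 0.000221) and Phlda1 (11.6 ± 2.4 against 30.7 ± 11.5 CPM, adjusted p = 0.0468). The Phlda1 call there was lost in 5 of the 6 fits with a library left out (without CTX replicates 1 and 2 the adjusted p was 0.218 and 0.0946, and without GPB+ replicates 1, 2 and 3 it was 0.0677, 0.112 and 0.153).

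Genes with the most similar pattern were sought by Pearson correlation of log2 CPM over the 15 libraries, among 9808 genes with a mean of 10 CPM or more. These libraries form 5 populations, so a correlation mostly follows the population means, and it is given as a description. Egfr was followed most closely by Cep192, Stil and Ddx21 (r = 0.99 for each). Hbegf was followed by Glul, Mfsd2a and Ccdc85a (0.99 each), where Glul, the gene of glutamine synthetase, is also on the astrocyte list. Tgfa was followed by Emx2os, Mapk10 and Cap2 (0.97, 0.96 and 0.96). Erbb2 was followed by Fam65a, Spry4 and Pitpnm1 (0.97, 0.97 and 0.96). Lrig1 was followed by Rhbdf1, Mblac2 and Kdelr1 (0.96 each), and of these Spry4 and Rhbdf1 are on the pathway lists above. Nrg1 had Ankrd28, Agps and Fgfr1op (0.93, 0.91 and 0.89). Errfi1 and Egf had weaker partners, Ppp1r2 at 0.85 and Lin37 at 0.80.

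**Figure D5:**
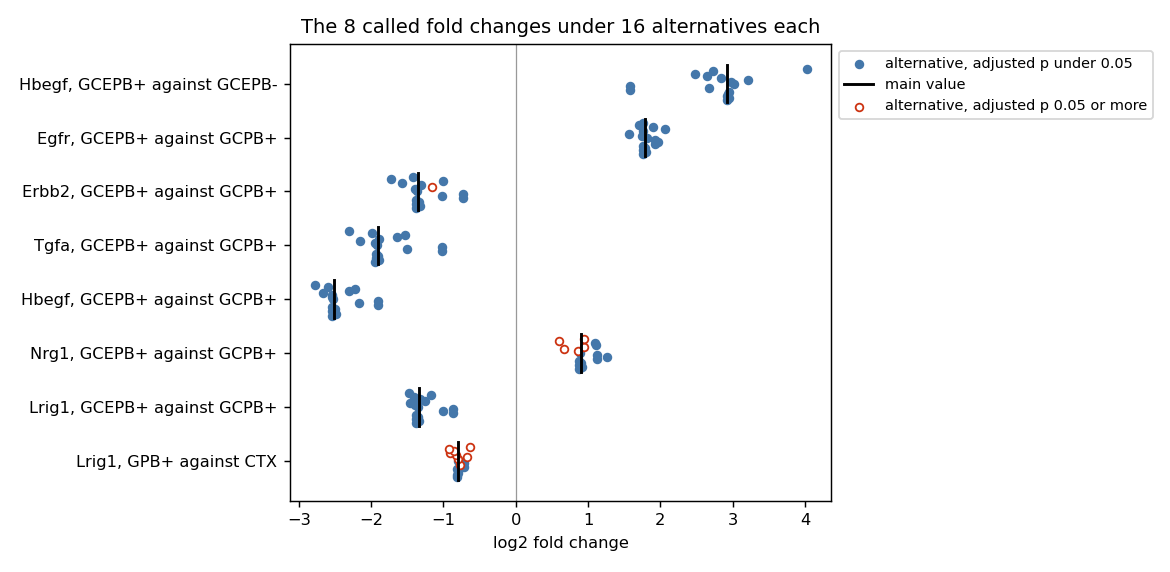
Log2 fold changes (x axis) of the 8 differences called among the 10 genes (rows), each as reported (black line) and under 16 alternatives (dots; open where the adjusted p was 0.05 or more). No dot crosses 0, and the 14 open dots belong to Lrig1 in GPB+ against CTX, Nrg1 and Erbb2.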

How the data were processed

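RNA of sorted cells was amplified with an ultra-low-input kit primed by oligo(dT), made into libraries by tagmentation and sequenced as pairs of 100 bases, per the labels' protocols. HTSeq, Cufflinks, TopHat2 2.1, cutadapt and mm10 are named, without roles, per the submitters' processing notes. Annotation and strand setting: not given in the sources used here. Such a kit does not mark strand, so overlapping genes may share counts. For all 15 libraries, whole-number gene counts were deposited by the authors without normalization. A second table deposited by the authors holds FPKM (scaled to length and depth), used here for levels between genes and as an alternative. Rows naming no gene (28 of 32763, 0.184% to 0.323% of counts) were left out.

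Counts were tested in R 4.3.3 by the quasi-likelihood test of edgeR 4.0.16 (TMM factors 0.825 to 1.22, filterByExpr, 5 groups, no covariate). Benjamini-Hochberg adjustment ran over 16302 genes. The fit was tested on simulated data. SE is the log2 fold change divided by the square root of F, an approximation. Alternatives used limma 3.58.1 on log2(FPKM + 1) or log2(FPKM + 0.1), DESeq2 1.42.0, other scaling, filters and sample sets, and each library left out. Replicates differed by more than sampling noise in every pair (chi-square per gene 26.7 to 104).

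The 10 genes and all lists were chosen with earlier results of these data known. Text names all 10 genes, up to 4 called genes per pathway list and comparison with a mean of 5 CPM or more (some were left out), and the 3 genes most alike in pattern to each gene with 5 CPM or more in a group, some also left out. Of 82 list genes, 81 were in the table, Erbin under its older symbol Erbb2ip. Promoter sequences are from RefSeq, GRCm38.p6.

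The titles number the libraries 1 to 3 in every group. Deviations from the group mean correlated across genes between libraries of equal number by 0.173, 0.119 and 0.177 in GCEPB+ against GCPB+ and by 0.155, 0.116 and 0.234 in GCPB+ against GPB+. All exceed 0.1, which is the only ground, from the data alone, for pairing in these comparisons. The alternative with a replicate block was a single fit over all 15 libraries, so it set the same replicate term on all 4 comparisons. The values were -0.00664, 0.0710 and 0.0976 in GCEPB+ against GCEPB- and 0.0787, 0.0556 and 0.174 in GPB+ against CTX. There not all exceed 0.1, and no pairing was assumed outside that fit. The cutoff of 0.1 was set by choice, and libraries of unequal number were not correlated for reference. A called pathway gene that the naming rule covers is not reported here.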

Additional observations from a re-analysis of the deposited data

How the results depend on the processing

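Of the 8 called differences among the 10 genes, 5 kept their call under all 16 alternatives each and none turned direction. Egfr in GCEPB+ against GCPB+, the check of the gate, is among these 5. The exceptions were Nrg1 and Erbb2 in GCEPB+ against GCPB+ and Lrig1 in GPB+ against CTX, which lost it in 14 of 128 fits in all. The number of genes higher in GCEPB+ than in GCEPB- was 1, and it was 2 with DESeq2 and 1 to 2 with a library left out. The number lower there went from 0 to 1 with the replicate block, where Egfr passed (log2 fold change -0.58, edgeR adjusted p = 0.0372). That fit applied the replicate numbers to all 15 libraries, and none of the correlations between these populations exceeded the chosen cutoff of 0.1. The number higher in GCEPB+ than in GCPB+ was 2, and it was 1 with the 2 groups alone and 1 to 2 with a library left out. The number lower in GPB+ than in CTX was 1, and it was 0 on log2(FPKM + 0.1), with the 2 groups alone and with any library left out. The replicate block added Errfi1 to the lower genes in GCEPB+ against GCPB+ and changed no call among the 10 genes other than these of Errfi1 and Egfr. For the 32 uncalled differences the direction was often not settled, and the cause was not tested. In GCEPB+ against GCEPB- the log2 fold change of Erbb4 was -0.33 with the block and that of Egf -0.0143, and Egf gave -0.0350, -0.161 and -0.0350 on the FPKM scales (pseudocounts 1 and 0.1, and 1 unfiltered). In GCPB+ against GPB+ Nrg1 gave 0.0207 with RLE factors and 0.0231 with DESeq2, and Lrig1 gave -0.0170 with the 5 CPM filter, -0.0106, -0.00991 and -0.0106 on the FPKM scales and -0.0114 with the 2 groups alone. In GPB+ against CTX Egfr gave -0.13, -0.14 and -0.13 on the FPKM scales. Left-out libraries gave, for GCEPB+ against GCEPB-, -0.75 to 0.82 for Erbb4, -0.26 to 0.51 for Egf, -0.13 to 0.37 for Nrg1 and -0.23 to 0.0787 for Lrig1. For GCEPB+ against GCPB+ they gave -0.89 to 1.48 for Erbb3. For GCPB+ against GPB+ they gave -0.41 to 0.0820 for Egfr, -1.82 to 1.98 for Erbb4, -0.45 to 0.66 for Egf, -0.56 to 0.15 for Tgfa, -0.22 to 0.23 for Nrg1, -0.17 to 0.13 for Lrig1 and -0.0130 to 0.51 for Errfi1. For GPB+ against CTX they gave -0.0470 to 0.14 for Egfr, -4.79 to 0.70 for Erbb3 and -2.02 to 1.57 for Erbb4. Across all genes, FPKM values changed the split of calls: 1401 higher and 714 lower in place of 1513 and 301 in GCEPB+ against GCEPB-, and 504 and 671 in place of 658 and 440 in GPB+ against CTX.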
